A study of Mus musculus with 2 samples.

Results

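The genes described here are a pair of epidermal growth factor (EGF) family ligands, Nrg1 and Hbegf, and the 4 receptors of the ErbB family, Egfr, Erbb2, Erbb3 and Erbb4. They were taken by symbol, with each probe set that the platform annotation assigns to exactly 1 of them. This gave 14 probe sets for the 6 genes, of 34945 single-gene probe sets for 18193 genes on the array. Expression was measured once per genotype in cells of the Tie2Cre lineage from mouse hearts at embryonic day 12.5. The mutant sample had the genotype Tie2Cre;Tbx20 loxP/-, with 1 floxed and 1 null Tbx20 allele, and the control sample Tie2Cre;Tbx20 +/loxP, with 1 working and 1 floxed allele. Both carried the Tie2Cre transgene, which recombines loxP sites in endothelium, endocardium and their descendants and in blood cells, and from both, live cells were sorted that lacked CD41, CD45 and Ter119 on their surface, which mark blood cells. The control is therefore not wild type: where the floxed allele recombines, the control keeps 1 working allele and the mutant none. The null allele is present in every cell of a mutant embryo, and whether embryos were pooled is not given in the sources used here.

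ErbB receptors are tyrosine kinases that pair when an EGF family ligand binds them. Erbb2 has no known ligand of its own and serves as the partner of the others, whereas Erbb3 binds neuregulin but has little kinase activity, so that these receptors signal as a pair. In the embryonic heart, neuregulin made by the endocardium reaches Erbb2 and Erbb4 on the muscle cells and is needed for trabeculae to form. Erbb2 and Erbb3 act in the mesenchyme of the endocardial cushions, the precursors of the valves, and Hbegf, acting through Egfr, limits the growth of that mesenchyme.

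The ligands Nrg1 and Hbegf and the receptors Erbb2 and Erbb3 gave a usable signal on both arrays, and Egfr and Erbb4 did not. All 6 usable probe sets, which belong to 4 genes, read lower in the mutant array, by 1.17-fold to 1.70-fold. Of all usable single-gene probe sets, 50.1% read lower by any amount. None of the 6 reached 2-fold, against 1.46% of all usable single-gene probe sets lower and 0.773% higher. Hbegf differed most, on 1 of its 2 probe sets, the other being close to Erbb2, and Nrg1 differed least. With 1 array per genotype these differences have no replicate check, and no test between genotypes was possible. The genotype and the cell preparation cannot be told apart in this design, nor can fewer cells of a type from less RNA per cell.

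A probe set was counted as measured where its signal lay above the floor on both arrays, the floor being the median signal of the array, 82.4 in the mutant and 91.3 in the control. This held for 6 of the 14 probe sets and for 55.2% of all single-gene probe sets. Signals are in the arbitrary linear units of MAS5, the Affymetrix summary method, and since probe sets differ in their probes, levels of different genes were not ranked. A summed signal adds the brightest probe set of each gene of a list, also where it lies under the floor, and serves only to compare the 2 arrays. Cells of both genotypes gave clear signal for the endothelial markers that the sort should hold, with 8 of 8 above the floor on both arrays. The targeted gene read lower in the mutant on each of its 3 probe sets, at 84.0%, 85.9% and 60.2% of control, but the exons that the floxed allele loses are not named in the labels, so this is no check of the deletion.

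**Figure D1:**
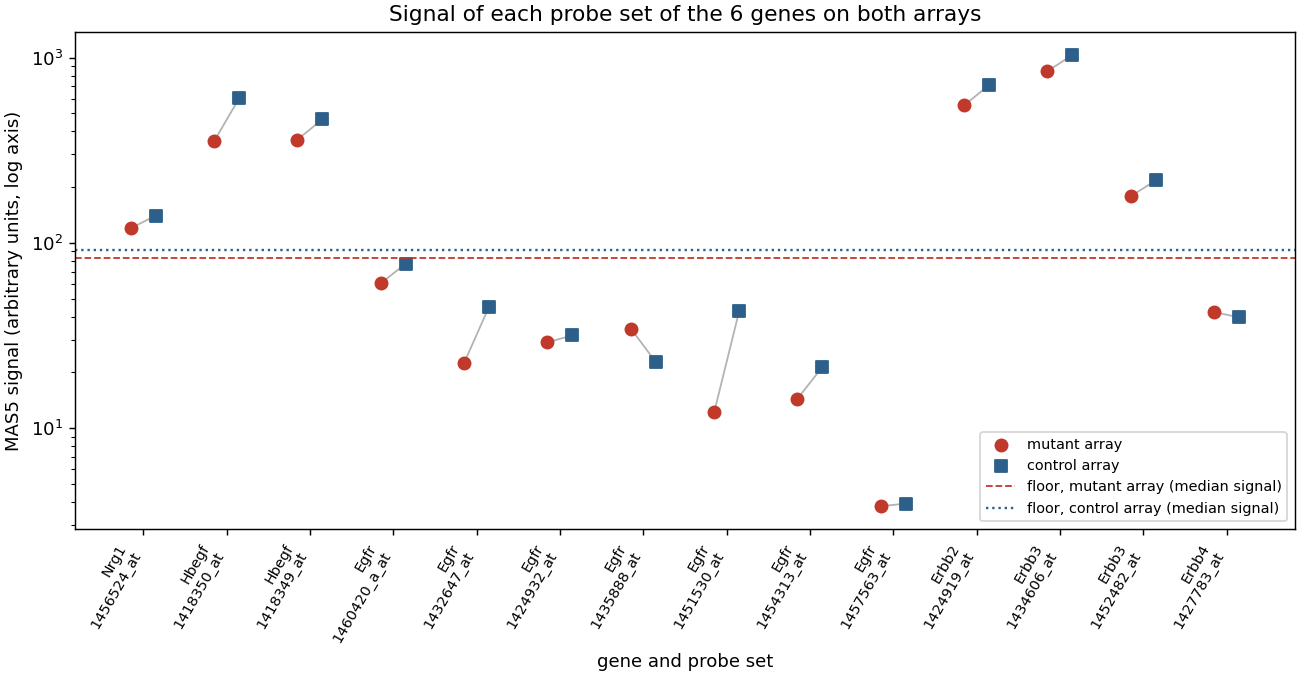
Signal of each of the 14 probe sets on the mutant array (circles) and the control array (squares), on a log axis in arbitrary MAS5 units, with a horizontal line at the floor of each array. The probe sets of Nrg1, Hbegf, Erbb2 and Erbb3 lie above both lines with the mutant point below the control point, and the 7 Egfr probe sets and the Erbb4 probe set lie under both lines.

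Nrg1 encodes neuregulin 1, the ligand that binds Erbb3 and Erbb4. Its only probe set here, 1456524_at, read 119.9 in the mutant and 140.5 in the control. These values were 1.45 times the floor in the mutant and 1.54 times in the control, and their log2 ratio of mutant over control was -0.23. Among probe sets of that brightness, with a mean signal under 200, the median log2 ratio was -0.10 (SD 0.50 over 3311 single-gene probe sets). Of all measured probe sets in that class, also those not assigned to 1 gene, 40.8% had a lower ratio than Nrg1. The mutant reading of Nrg1 was thus lower by less than the spread of dim probe sets. Nrg1 has many transcript forms, and which of them this probe set reads was not checked. The endocardial markers, whose cells are the known source of neuregulin in the heart, went both ways in the same arrays. Of 4 such markers 2 read lower and 2 higher, with Npr3 at 4621 in the mutant and 3891 in the control, and Cytl1 at 283 in the mutant and 511 in the control.

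Hbegf encodes the heparin-binding EGF-like growth factor, a membrane-anchored ligand of Egfr and Erbb4 that is released by cleavage. Its brighter probe set, 1418350_at, read 354 in the mutant and 603 in the control, a log2 ratio of -0.77 or 58.7% of control. The other one, 1418349_at, read 361 in the mutant and 465 in the control, a log2 ratio of -0.36. Both probe sets were lower in the mutant, and they disagreed on the size, and their log2 ratios averaged -0.57 (SD 0.29, n = 2 probe sets). That SD is an error of the probes, since both read 1 RNA sample. In the brightness class from 200 to 1000, the log2 ratios between the 5th and 95th percentiles ran from -0.68 to 0.65. Probe set 1418350_at lay below this range and 1418349_at inside it.

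Hbegf is also known as a gene that cells switch on quickly after stimulation or stress. Immediate early genes, a list added after earlier results of these data were known, also read lower in the mutant array. All 11 measured members of 12 read lower in the mutant, 2 of them by 2-fold, against 51% of 10665 measured genes lower by any amount and 1.46% lower by 2-fold. Their median log2 ratio was -0.47, with a summed signal of 32842 in the mutant and 48099 in the control. Egr1, an early growth response factor, read 10741 in the mutant and 15476 in the control. Ier3, an early response gene of stressed cells, read 2339 in the mutant and 6017 in the control. It was 1 of the 2 past 2-fold, while Fosb and Junb were nearly level, at log2 ratios of -0.02 and -0.07. Fosl1 was under the floor on both arrays. The part of these genes in the Hbegf reading was not tested.

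Erbb2 and Erbb3, the receptor pair of the cushion mesenchyme, differed by similar amounts. Erbb2 had 1 probe set, 1424919_at, which read 553 in the mutant and 712 in the control, a log2 ratio of -0.36 or 77.7% of control. For Erbb3, probe set 1434606_at read 844 in the mutant and 1036 in the control, a log2 ratio of -0.30. The dimmer Erbb3 probe set, 1452482_at, read 179 in the mutant and 217 in the control, a log2 ratio of -0.28. The 2 Erbb3 probe sets thus gave nearly the same ratio with the deposited scaling (SD 0.01 over 2 probe sets). They lay further apart with quantile normalization, at -0.33 and -0.21, and with loess, at -0.34 and -0.21. Elsewhere on the arrays, probe sets that share a gene differed by an SD of 0.36 for mean signals from 200 to 1000 and 0.46 under 200. The Erbb2 ratio and both Erbb3 ratios lay between the 5th and 95th percentiles of probe sets of like brightness.

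**Figure D2:**
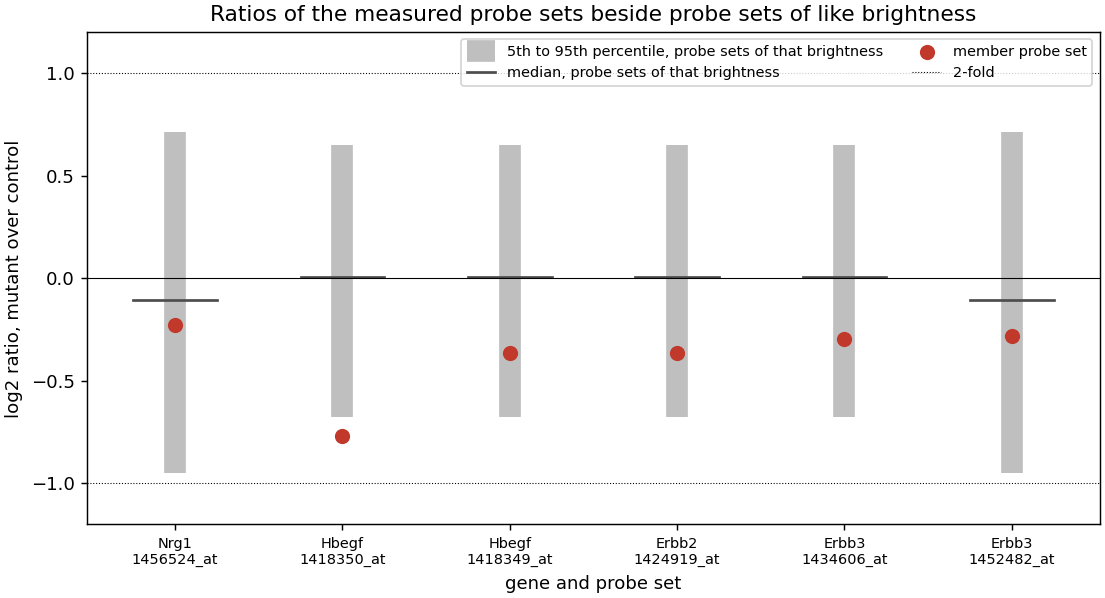
Log2 ratio of mutant over control for the 6 measured probe sets (points), beside the median (line) and the range from the 5th to the 95th percentile (grey bar) of all measured single-gene probe sets of the same brightness class. All 6 points are below 0 and above the 2-fold line at -1, and only Hbegf probe set 1418350_at, at -0.77, lies outside its grey bar.

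Markers of cushion mesenchyme, whose cells may carry Erbb3, read lower in the mutant array. All 6 cushion mesenchyme markers were lower in the mutant, against 51% of all measured genes, with a median log2 ratio of -0.51 and a summed signal of 21701 in the mutant and 31335 in the control. They include Postn, which encodes the matrix protein periostin, at 6431 in the mutant and 10686 in the control. Twist1, a transcription factor of mesenchyme, read 3101 in the mutant and 4458 in the control, and Sox9, a factor of cushion and cartilage cells, 1014 in the mutant and 1065 in the control. Schwann and neural crest cells also express Erbb3, and the markers analysed for them were dim. Sox10, their defining transcription factor, read 64.3 in the mutant and 137 in the control, above the floor in the control only and at least 1.66-fold lower in the mutant. Its other 2 probe sets were under the floor on both arrays. Foxd3, a neural crest factor, was under the floor on both arrays, and Fabp7 read 108 in the mutant and 133 in the control. Of 6 listed markers of these cells 3 were analysed, and only Fabp7 was above the floor on both arrays. The summed signal of the 3 analysed neural crest markers was 192 in the mutant and 307 in the control, and includes values under the floor. The part of either marker list in the receptor readings was not tested.

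Egfr, the receptor for Hbegf, had 7 probe sets, the most of the 6 genes, and all 7 were under the floor on both arrays. The brightest of them, 1460420_a_at, read 60.5 in the mutant and 77.2 in the control, and the dimmest 3.79 in the mutant and 3.91 in the control. Without regard to the floor, 6 of the 7 read lower in the mutant and 1 higher, but with this floor their ratios were not used. Erbb4, the neuregulin receptor of heart muscle cells, had a single probe set, 1427783_at, at 42.3 in the mutant and 39.6 in the control, also under both floors. A signal under the floor sets a limit to what this array detected and does not show that a transcript was absent. Muscle cells were not the sorted lineage, yet their markers gave signal on both arrays. Of 8 myocardial markers 7 were measured, with 2 lower and 5 higher in the mutant, a median log2 ratio of 0.08 and a summed signal of the list of 18433 in the mutant and 14638 in the control. The highest ratio was that of Myl7, an atrial myosin light chain, at 6753 in the mutant and 3811 in the control. The lowest was that of Tnnt2, cardiac troponin T, at 2824 in the mutant and 3345 in the control. Myh7, a myosin heavy chain, read 1538 in the mutant and 1454 in the control, and Nkx2-5 was under the floor on both.

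Set beside all features, the 6 measured probe sets shared a direction, and none differed by 2-fold, as few probe sets on these arrays did. Egfr and Erbb4 were not measured and have no part in these counts. None of the 6 measured probe sets was 2-fold lower or 2-fold higher, against 1.46% lower and 0.773% higher of 19273 measured single-gene probe sets. These shares were 4.02% lower and 1.66% higher among probe sets under a mean signal of 200, and 1.24% lower and 0.898% higher among those from 200 to 1000. At 1.5-fold, 1 of the 6 was lower, Hbegf 1418350_at, against 7.29% of all measured probe sets and 7.1% of those from 200 to 1000. All 6 had a log2 ratio below 0, against 50.1% of all measured probe sets, 58% of those under a mean signal of 200 and 49.4% of those from 200 to 1000. The 6 probe sets belong to 4 genes and share both arrays, so they are not independent readings. Taking the brightest probe set of each of the 4 genes, the median log2 ratio was -0.33, where the median over 10665 measured genes was -0.01. No spread for a median of so few genes was computed.

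The other ligands of the family were mostly under the floor. Of 9 genes, 8 were analysed, and 6 of these (Nrg2, Nrg3, Egf, Ereg, Btc and Epgn) had their brightest probe set under the floor on both arrays. Only Nrg4, a neuregulin that binds Erbb4, was measured, at 149 in the mutant and 113 in the control, a log2 ratio of 0.41. Tgfa, which encodes the Egfr ligand transforming growth factor alpha and was picked for mention after its values were seen, was above the floor in the control only. Its probe set 1421943_at read 39.6 in the mutant and 169.7 in the control, at least 2.06-fold lower in the mutant, while its other 2 probe sets were under the floor on both arrays. The call for Tgfa thus rests on 1 of 3 probe sets.

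Genes that release the ligands were split in direction. ADAM proteases cut EGF family ligands from the cell surface, Rhbdf1 and Rhbdf2 escort Adam17, and Timp3 inhibits these proteases. All 9 listed genes were measured, with 4 lower, 5 higher and 0 at 2-fold, and a median log2 ratio of 0.05. Over all 10665 measured genes, 1.46% were 2-fold lower, 0.647% were 2-fold higher and 51% read lower by any amount, which is the background for all gene lists given here. Timp3 read 2241 in the mutant and 2830 in the control (-0.34), though its highest probe set was at 0.03. Adam10 read 4861 in the mutant and 6077 in the control (-0.32), and its probe sets reached up to 0.36. Adam12, which cleaves Hbegf, read 1048 in the mutant and 841 in the control (0.32), with its other probe set at 0.58. Adam19, which cleaves neuregulin, read 2656 in the mutant and 3107 in the control (-0.23). The probe sets of Timp3 and Adam10 disagreed in sign, and those of Adam12 and Adam19 did not.

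Among genes that end or damp ErbB signalling, the Sprouty genes read lowest. Of 14 genes, 13 were measured, with 9 lower, 4 higher, 0 at 2-fold and a median log2 ratio of -0.11. The Sprouty proteins restrain signalling from receptor kinases to ERK, and their genes are themselves induced by it. Spry1 read 128 in the mutant and 213 in the control (-0.74). Spry2 read 1306 in the mutant and 1786 in the control (-0.45), and its other probe set was at -0.30. Spry4 read 233 in the mutant and 312 in the control (-0.42), and its other probe set was at -0.35. All the measured probe sets of these Sprouty genes were lower in the mutant. The ratio of the brightest probe set of each lay between the 5th and 95th percentiles of probe sets of like brightness. Dusp6, an ERK phosphatase that is also induced by ERK, was nearly level at 2541 in the mutant and 2556 in the control (-0.01). Lrig1, which promotes the loss of ErbB receptors, read 2852 in the mutant and 3072 in the control (-0.11), with probe sets up to 0.13. Lrig3, chosen for mention after its values were seen, was above the floor in the mutant only, at 169.5 in the mutant and 67.8 in the control on probe set 1430554_at, at least 1.86-fold higher in the mutant.

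**Figure D3:**
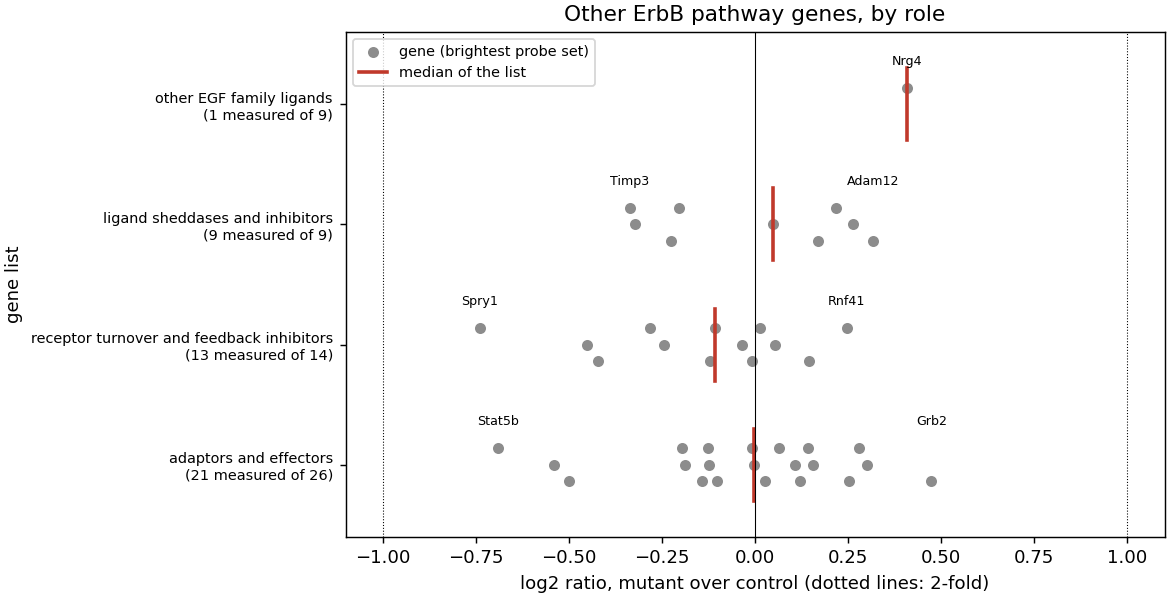
Log2 ratio of mutant over control of each measured gene (grey points, brightest probe set) in 4 lists of ErbB pathway genes by role, with the median of the list (red line) and dotted lines at 2-fold. No gene reaches 2-fold, the sheddase and effector lists lie on both sides of 0, and Spry1 (-0.74) and Stat5b (-0.69) are the lowest genes.

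Adaptors and effectors downstream of the receptors stood on both sides of 0. Of 26 listed genes 22 were analysed and 21 measured, with 11 lower, 10 higher, 0 at 2-fold and a median log2 ratio of -0.0020. The list also holds matrix genes that act with these receptors in the cushions, of which Has2 makes hyaluronan and Vcan encodes the proteoglycan versican that binds it. Stat5b, a transcription factor activated by cytokine and growth factor receptors, read 435 in the mutant and 701 in the control (-0.69), and its other probe set was at -0.51. Gab2, a docking protein, read 1483 in the mutant and 2158 in the control (-0.54), and all 3 of its probe sets were lower. Vcan read 8078 in the mutant and 11412 in the control (-0.50), and all 4 of its probe sets were lower. Shc1, the adaptor that binds phosphorylated ErbB receptors, went the other way, at 6029 in the mutant and 4972 in the control (0.28). Has2, named after its value was seen, read 1523 in the mutant and 1278 in the control (0.25). By their brightest probe sets, Stat5b, Gab2 and Vcan lay below the 5th percentile of probe sets of like brightness. Grb2, an adaptor named for this comparison, lay above the 95th percentile, at 0.47. The genes of this list thus did not share a direction.

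Other cell types on the same arrays also differed. Of 8 pan-endothelial markers 7 read higher in the mutant and 1 lower, with a median log2 ratio of 0.10. Cdh5, the endothelial cadherin, read 10975 in the mutant and 10886 in the control, and Emcn, an endothelial sialomucin, 11349 in the mutant and 10527 in the control. All 6 epicardial markers were higher in the mutant, 2 of them by 2-fold against 0.647% of all measured genes, with a median of 0.80. Their summed signal was 7815 in the mutant and 4414 in the control. These markers include Upk3b, at 2961 in the mutant and 1163 in the control, and Tcf21, at 3367 in the mutant and 2432 in the control. Of 5 analysed erythroid markers 3 read lower, 1 of them by 2-fold against 1.46% of all measured genes, and 1 higher. Their summed signal was 7997 in the mutant and 11640.0 in the control. Hbb-y, an embryonic globin, read 6606 in the mutant and 9843 in the control. Of 5 leukocyte markers only Cd68 was above the floor on both arrays, at 162 in the mutant and 93.8 in the control, and Ptprc, which encodes CD45 itself, was under it on both. Cx3cr1, a chemokine receptor, read 47.8 in the mutant and 226 in the control, at least 2.74-fold lower in the mutant. Csf1r, the receptor of macrophage growth factor, read 80.6 in the mutant and 144 in the control, at least 1.74-fold lower. Each of these calls rests on 1 probe set, and the remaining probe sets of both genes were under the floor on both arrays. The summed signal of the leukocyte list was 371 in the mutant and 516 in the control. Intact RNA is often judged by how evenly the ends of a transcript read, and for Gapdh the signal ratio of the 3' end over the 5' end was 1.64 in the mutant and 2.27 in the control, and for Actb 0.998 in the mutant and 0.989 in the control. The part of these differences in the readings of the ErbB genes was not tested.

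**Figure D4:**
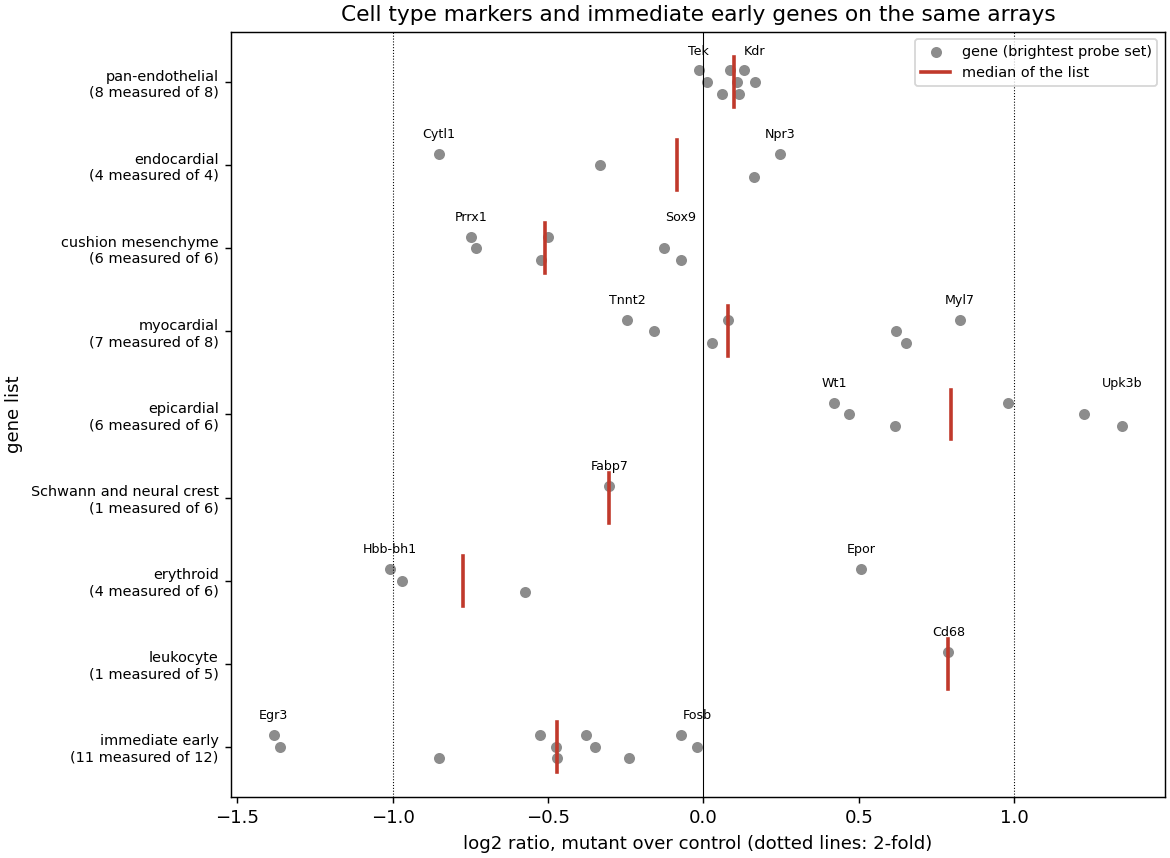
Log2 ratio of mutant over control of each measured gene (grey points, brightest probe set) in 8 lists of cell type markers and 1 list of immediate early genes, with the median of the list (red line) and dotted lines at 2-fold. Cushion mesenchyme and immediate early genes are all below 0 and epicardial markers all above 0, while pan-endothelial markers lie between -0.01 and 0.16.

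The ratios of the 4 measured genes kept their sign under each way of processing the signals that gave a value. A changed floor or the limit to unsuffixed probe sets could only return the same value or none for these genes. So could the median over probe sets for Nrg1 and Erbb2, which have 1 probe set each. Over all settings that gave a value, Hbegf lay between -0.79 and -0.57 and Erbb2 between -0.39 and -0.34. Erbb3 lay between -0.34 and -0.28 and Nrg1 between -0.24 and -0.10. Nrg1 came closest to 0 with quantile normalization and with loess, which remove the trend of the ratio with brightness. The order from Hbegf, the lowest, through Erbb2 and Erbb3 to Nrg1 was the same in each setting that gave all 4 values, but the gaps between Erbb2, Erbb3 and Nrg1 are smaller than the SD between probe sets of 1 gene, and the second Hbegf probe set had the same ratio as Erbb2.

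**Figure D5:**
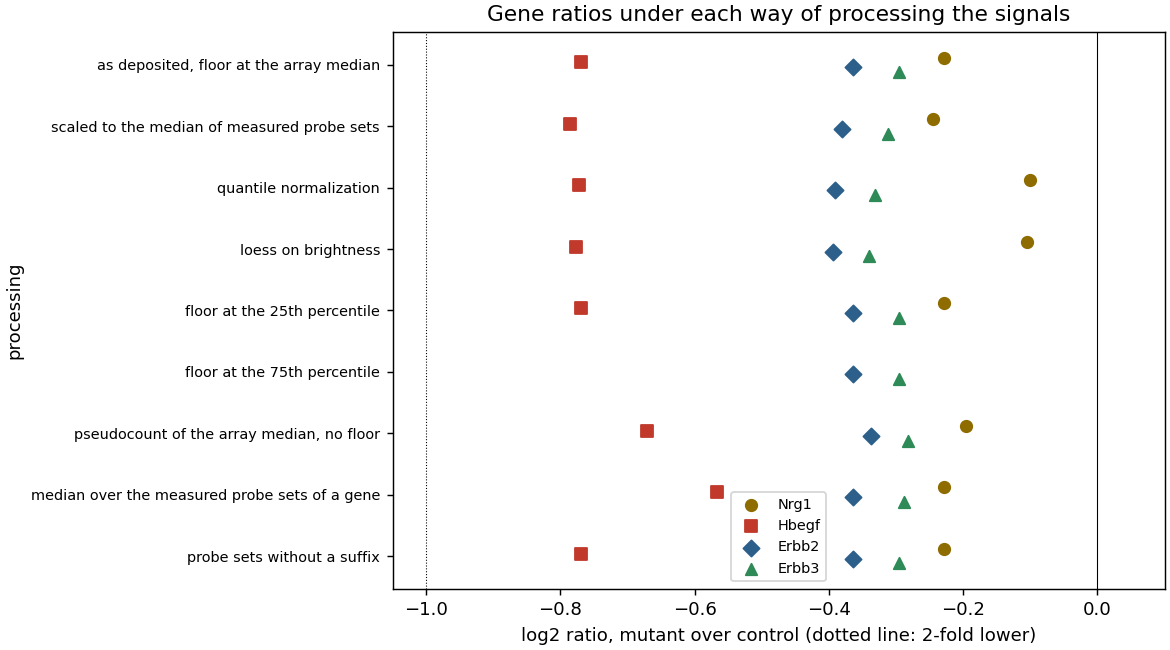
Log2 ratio of mutant over control for Nrg1, Hbegf, Erbb2 and Erbb3 (symbols) under each way of processing the signals (rows). All symbols lie between the 2-fold line at -1 and 0, and with the floor at the 75th percentile Hbegf and Nrg1 have no value.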

How the data were processed

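One Affymetrix 1-colour array of mutant cells and 1 of control cells were used. The authors deposited a linear intensity for each probe set, which the submitters' processing notes credit to MAS5. This method subtracts mismatch from perfect-match probes, which makes ratios of dim probe sets noisy, and scales each array by 1 factor: the mean without the lowest and highest 2% was 500.003 on both arrays. No version of it, and no genome build, is given in the sources used here. Of 45101 probe sets 64 were array controls, and of the others 34945 named 1 gene in the platform annotation, 932 several and 9160 were not listed. All 14 member probe sets carried the symbol that their gene identifier has in RefSeq's gene table.

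Signals were used as deposited, floored at the array median over non-control probe sets and compared as log2 ratios. A gene took its probe set with the highest geometric mean signal. Brightness classes (under 200, 200 to 1000, over 1000) used that mean. The SD between probe sets of 1 gene came from 5174 genes. The number of arrays limits the precision, and p-values were not computed. Text names all members and, per pathway list, the 3 measured genes with the largest absolute ratio and the 2 brightest. Per marker list it names some bright members, and exceptions are stated. Cytl1, Sox9, Tnnt2, Myh7, Cx3cr1, Csf1r, Sox10, Foxd3, Nkx2-5, Ptprc, Ier3, Fosb, Junb and Fosl1 are given as defining markers or for their range. Members and lists were chosen with earlier results of these data known. Alternatives were median scaling, quantile normalization, loess (span 0.3), a floor at the 25th or 75th percentile, a pseudocount of the array median, the median over probe sets, unsuffixed probe sets, and folds of 1.5 and 3. The steps were run on simulated data whose planted differences were all past 2-fold and lay in genes over a mean signal of 200. No smaller difference, and none in a dimmer gene, was planted. The simulation therefore does not check ratios of the size seen for the members. Python 3.11.15, pandas 2.3.3 and statsmodels 0.14.6 were used.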

Additional observations from a re-analysis of the deposited data

How the results depend on the processing

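No alternative turned the sign of a ratio of Nrg1, Hbegf, Erbb2 or Erbb3 or moved it by more than the SD between probe sets of 1 gene in its brightness class. Changed floors and the limit to unsuffixed probe sets could not have moved these ratios, only left them without a value. The count of member probe sets at least 2-fold lower was 0, but 1 with the floor at the 25th percentile, where Egfr 1432647_at entered at -1.01, and 1 at a fold of 1.5. The count of those higher stayed 0. At that lower floor 3 of the 7 Egfr probe sets had a value, -0.35, -1.01 and -0.12, and Erbb4 stood at 0.09, among 6358 probe sets between both floors whose ratios had an SD of 0.75 and of which 19.5% passed 2-fold in either direction. With the floor at the 75th percentile Hbegf and Nrg1 had no value. Medians of some pathway lists turned sign. The other ligands, at 0.41 from 1 gene, were at -0.32 with the lower floor and -0.048 with a pseudocount. The sheddase list, at 0.05, was at -0.20 with the higher floor and -0.039 with unsuffixed probe sets. The adaptor and effector list, at -0.0020, was at 0.0090 with quantile normalization, 0.0044 with loess, 0.012 with the higher floor and 0.11 with the median over probe sets. The feedback list stayed below 0. More genes pass a lower floor and fewer a higher one; otherwise the cause was not tested. No paired analysis was possible because there is 1 array per genotype. Leaving out a replicate was not possible for the same reason.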
